A study of Mus musculus with 3 samples.

Results

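The Slc25 genes encode the mitochondrial carrier family, and their transcripts were examined in mouse epithelial cells of the large intestine and of the lower and upper small intestine. Every gene whose symbol was Slc25a followed by a number was taken, which gave 47 of the 24346 genes listed. At least 1 library held 39 of them at 1 FPKM or above, where FPKM stands for sequenced fragments per kilobase of transcript at a common sequencing depth. The other 8 were under 1 FPKM in each of the 3 libraries.

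Carriers of this family sit mostly in the inner mitochondrial membrane, which is otherwise closed to most metabolites. They exchange ADP for ATP and bring in phosphate, and they move carboxylates, amino acids, acylcarnitines, cofactors, nucleotides and metals between the cytosol and the matrix. In the small intestine, epithelial cells are known for making citrulline from glutamine through mitochondrial ornithine, while colonic epithelial cells are known for oxidising the short-chain fatty acid butyrate.

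The study sequenced RNA from epithelial cells of the 3 regions, with 1 library per region, in a series whose title concerns an ATP-hydrolysing ectoenzyme and inflammation of the colon. Opened intestines were washed and shaken for 20 min at 37 °C in 5 mM EDTA, which loosens epithelium, and the released cells were used without a described sort. The source names of all 3 libraries begin with SPFm, an abbreviation that those names do not spell out. Beyond it, the labels give no genotype, age, sex or number of animals for any library, and no treatment of the animals. A strain entry is attached to the upper small intestinal library alone and names a mouse colorectal cancer model, MC38. Should it hold, region and strain cannot be told apart there. With 1 library per region there is no replicate spread, so nothing below was tested and all differences describe these libraries.

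The spacing of low values implied about 8370000, 10870000 and 7270000 counted reads in the large, lower small and upper small intestinal libraries. Intervals given beside ratios are 95% exact (Clopper-Pearson) intervals from the reads that this spacing implies, counted over the shortest annotated coding transcript, which gives the fewest reads. They cover counting error only and take the deposited scale as given. Epithelial markers were high in all libraries, with Epcam at 806, 879 and 666 FPKM in the same order, and 10 of 10 were measured. Markers of several cell types moved with region. Absorptive enterocyte markers were lower in the large intestine for 10 of 10 (summed 422, 13045 and 28465 FPKM), Paneth cell markers for 7 of 7 (37.6, 17808 and 17542 FPKM), and colonocyte markers were higher for 7 of 8 (9556, 685 and 329.7 FPKM). T cell markers were lower in the large intestine for 10 of 10 measured against the lower small intestine and 6 of 8 against the upper (summed 11.9, 549.8 and 543 FPKM). Proliferating cell markers were lower there for 6 of 8 (157, 407 and 359 FPKM). B cell and plasma cell markers were lower there for 5 of 5 measured against the lower small intestine (summed 0.0970, 30.7 and 30.1 FPKM), with 5 of 6 listed at 0 in the large intestine. The part of these cell types in the carrier differences was not tested, and in bulk samples fewer cells of a type and less RNA per cell cannot be told apart.

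The summed level of the 47 carriers was 2574 FPKM in the large, 2591 FPKM in the lower small and 3356 FPKM in the upper small intestine, or 0.494%, 0.401% and 0.484% of all FPKM. A pair of genes held most of it. Slc25a5, the ADP/ATP carrier known from dividing cells, was listed at 1241 FPKM in the large, 1281 FPKM in the lower small and 1696 FPKM in the upper small intestine. Slc25a3, the phosphate carrier that supplies ATP synthase, was listed at 535 FPKM in the large, 493 FPKM in the lower small and 670.0 FPKM in the upper small intestine. They ranked first and second in every library and together made up 69.0%, 68.5% and 70.5% of the family. The other carriers summed to 798, 816 and 989 FPKM. The plot of levels by carrier shows this spread on a log scale.

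**Figure D1:**
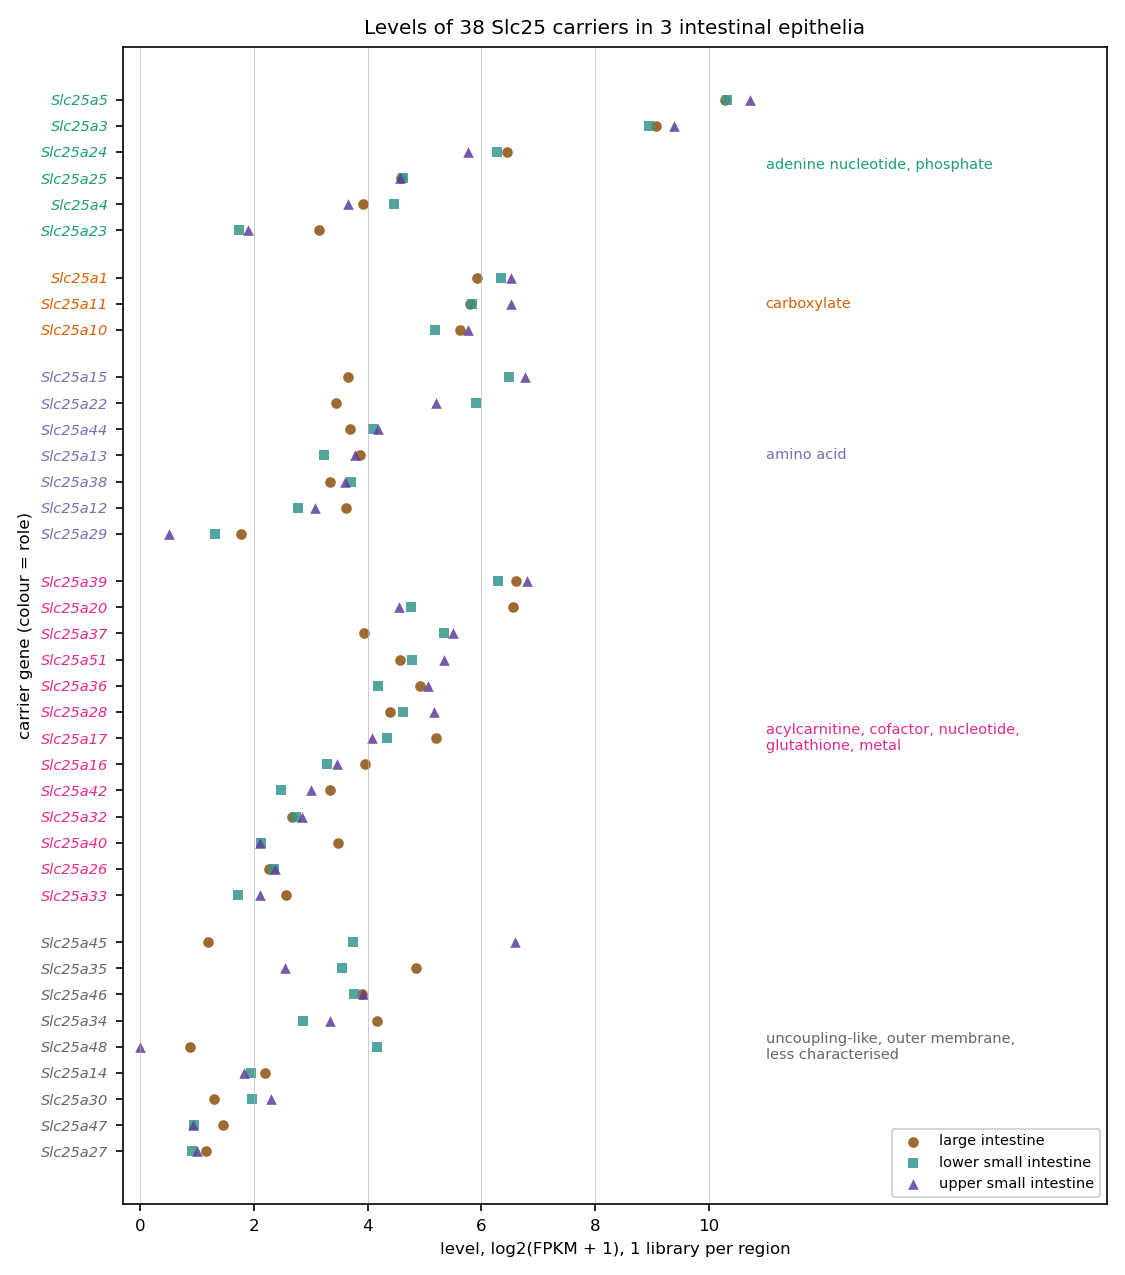
Level of 38 of the 39 carriers at 1 FPKM or more in at least 1 library, as log2(FPKM + 1), with 1 point per library (circle, large; square, lower small; triangle, upper small intestine) and carriers grouped and coloured by role. Slc25a5 and Slc25a3 lie to the right of all others, and Slc25a45, Slc25a48, Slc25a15 and Slc25a22 show the widest gaps between libraries.

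Differences were taken on the log2(FPKM + 1) scale, which understates those of low genes, and a carrier was called higher or lower at an absolute difference of 1 or more, a 2-fold ratio of FPKM + 1. A carrier counted as measured when either library compared held it at 1 FPKM. Between large and lower small intestine, 10 of 39 measured carriers (25.6%) were called, 5 higher and 5 lower in the large intestine. Of all 12376 measured genes 20.2% were called, 9.75% higher and 10.5% lower. Between large and upper small intestine, 11 of 38 (28.9%) were called, 6 higher and 5 lower in the large intestine. The background was 22.9% of 12350 genes, 11.2% higher and 11.7% lower. Between upper and lower small intestine, 2 of 38 (5.26%) were called, 1 in each direction. The background was 6.84% of 11941 genes, 3.92% higher and 2.92% lower in the upper. As a family the carriers were thus called at rates near those of all measured genes. Their median differences were 0.18, -0.0042 and 0.17 in these 3 comparisons, and those of all measured genes were -4.5e-05, 0.00057 and -0.029. The first and second comparisons share the large intestinal library, and each small intestinal library also enters 2 comparisons.

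**Figure D2:**
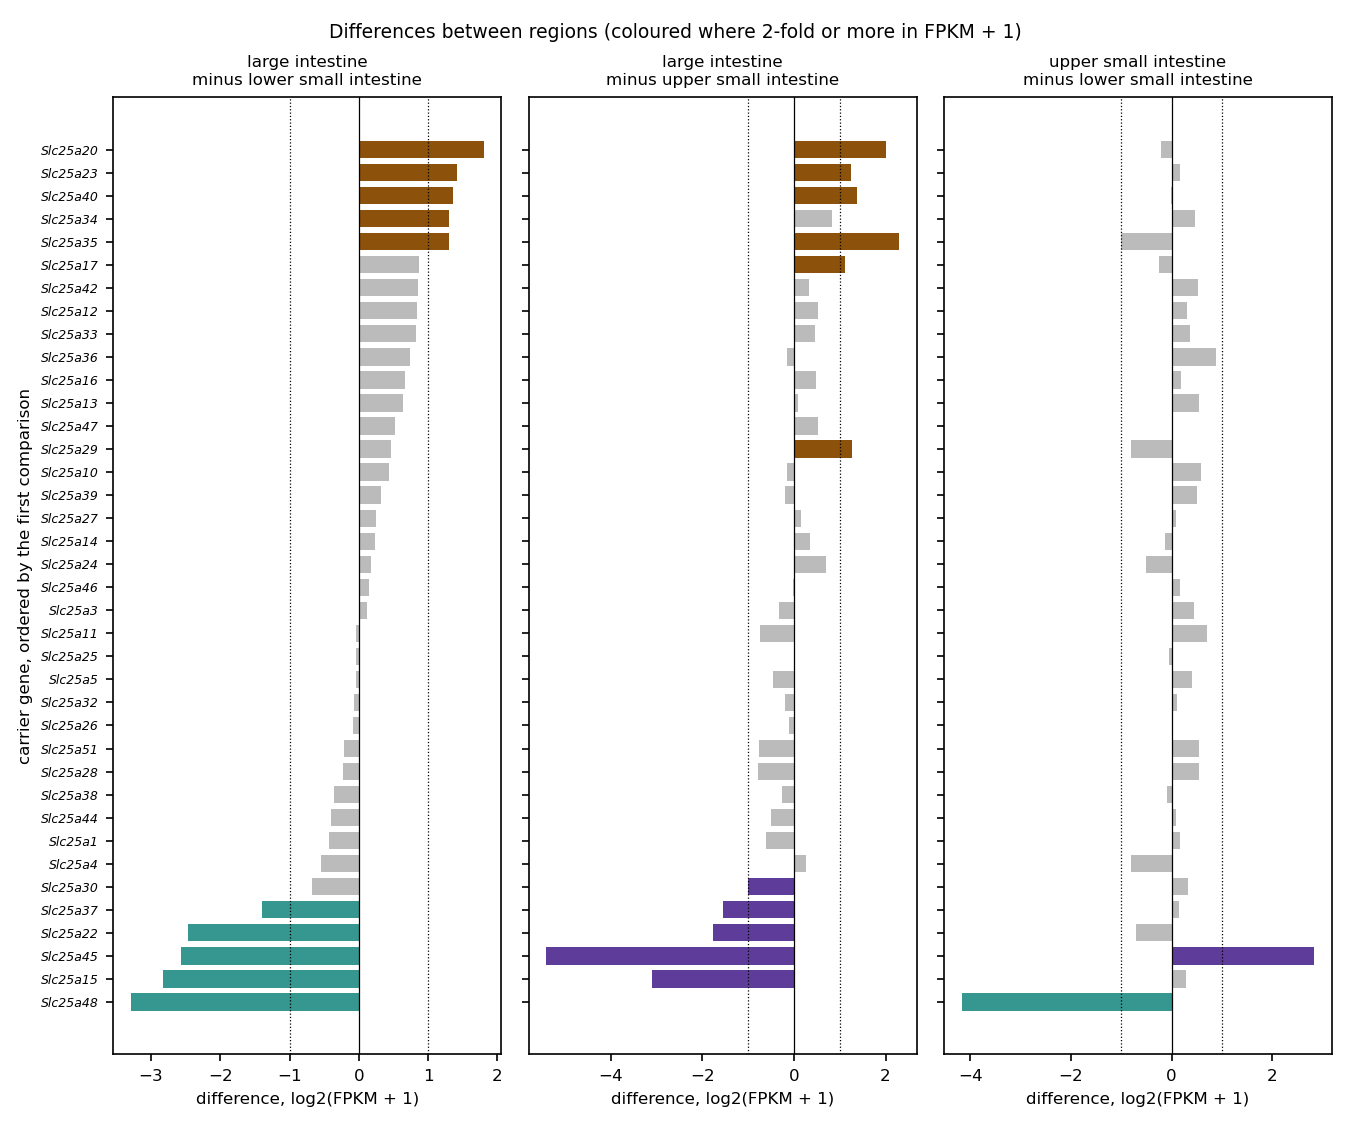
Differences in log2(FPKM + 1) between libraries for 38 of the 39 carriers, ordered by the first comparison, with dotted lines at 1 and -1 and bars coloured by the region with the higher value where the difference reaches 2-fold. Called differences sit at both ends of the first 2 panels, and Slc25a45 and Slc25a48 alone are coloured in the third.

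The 26 carriers that were measured and called in no comparison differed by -0.54 to 0.86 between large and lower small, -0.78 to 0.69 between large and upper small and -0.80 to 0.88 between upper and lower small intestine. Of the 39, 17 had their highest value in the large, 5 in the lower small and 17 in the upper small intestine. Over all genes at 1 FPKM in some library these shares were 41.3%, 29.2% and 29.4%. The upper small intestinal share depended on the scale of that library. A list of 26 genes of the respiratory chain, ATP synthase and mitochondrial housekeeping, used as a reference, had its highest value there for 21 of 26. With libraries rescaled to that list, 23 carriers were highest in the large, 9 in the lower small and 7 in the upper small intestine (59.0%, 23.1% and 17.9%), against 52.1%, 35.5% and 12.5% of all genes. With all libraries rescaled to one sum, the counts were 25, 4 and 10 (64.1%, 10.3% and 25.6%), against 63.7%, 21.1% and 15.2% of all genes. None of the 26 reference genes was called in any comparison, and their medians were -0.16, -0.36 and 0.23 for large against lower small, large against upper small and upper against lower small.

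Rescaling also moved the balance of calls. Under one sum, 10 carriers were called higher and 5 lower in the large against the lower small intestine, and 8 higher and 4 lower against the upper. Of all measured genes, 14.2% were then higher and 8.02% lower in the first comparison, and 17.8% and 7.999% in the second. Scaling by the reference list also gave 8 higher and 4 lower against the upper, where 16.4% and 8.39% of all genes were called. Higher calls thus made up 66.7% of the carriers' calls in each of these 3 cases. Among all genes they made up 63.9%, 69.0% and 66.1%, so the carriers' balance was near that of all genes in these 3 cases. Between upper and lower small intestine, 1 carrier was higher and 2 lower under one sum, and 1 higher and 3 lower under the reference scaling. Of so few calls 33.3% and 25% were higher, against 51.6% and 38.9% among all genes. The one-sum scaling moved the median of all genes by 0.29, 0.38 and -0.096 in the 3 comparisons, and the reference scaling by 0.077, 0.32 and -0.25. Of the 23 called differences of the named carriers, 22 were kept under each of the 3 rescalings, and the call lost each time was that of Slc25a30.

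Among the carriers of adenine nucleotides and phosphate, 6 of 9 were measured, and 1 was called in each comparison with the large intestine and none between the small intestinal libraries. Slc25a5 (chrX:36795651-36798807, mm10, plus strand) and Slc25a3 (chr10:91116574-91124059, minus strand) were highest in the upper small intestine, by 1.32-fold (interval 1.30 to 1.35) and 1.36-fold (interval 1.31 to 1.41) over the lower small intestine. Both ratios exceed counting error and are under 2-fold. The difference of Slc25a3 between large and upper small intestine was -0.32 as deposited, 0.086 under one sum and 0.020 under the reference scaling, so its direction depends on the scale. That of Slc25a5 was -0.45, -0.041 and -0.11 on the same 3 scales, and between large and lower small intestine it was -0.046 as deposited and 0.26 under one sum.

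Slc25a4, the ADP/ATP carrier of heart and muscle, was low in all libraries at 14.1, 20.96 and 11.6 FPKM for large, lower small and upper small intestine. It made up 1.12% (interval 0.982 to 1.28) in the large, 1.61% (1.46 to 1.77) in the lower small and 0.679% (0.577 to 0.790) in the upper small intestine of the summed level of Slc25a4 and Slc25a5. Slc25a31, the ADP/ATP carrier of the germ line, was listed at 0, 0.044 and 0 FPKM.

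Of the 3 measured calcium-regulated carriers that exchange ATP-Mg for phosphate, 1 was called. Slc25a23 (chr17:57043711-57059863, minus strand) was listed at 7.88 FPKM in the large, 2.32 FPKM in the lower small and 2.75 FPKM in the upper small intestine. It was highest in the large intestine, 3.40-fold (interval 1.82 to 6.59) over the lower small and 2.87-fold (interval 1.45 to 5.93) over the upper small intestine. Slc25a24, the most abundant of the 3, was listed at 86.5, 76.3 and 53.2 FPKM and was called in no comparison as deposited, with 0.69 between large and upper small intestine, which became a call of 1.10 under one sum and of 1.03 under the reference scaling. Slc25a25 differed little, at 23.0, 23.8 and 22.8 FPKM. The share of Slc25a23 in the summed level of Slc25a23 and Slc25a24 was 8.35% (interval 6.01 to 10.99) in the large, 2.95% (1.66 to 4.76) in the lower small and 4.91% (2.60 to 8.34) in the upper small intestine.

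No carboxylate carrier of the 3 measured was called. Slc25a1, which exports citrate to the cytosol, was listed at 59.6 FPKM in the large, 80.4 FPKM in the lower small and 90.8 FPKM in the upper small intestine, the lowest value being in the large intestine. Slc25a11, which exchanges oxoglutarate for malate in the malate-aspartate shuttle, peaked in the upper small intestine (54.5, 55.8 and 91.1 FPKM), with a difference of -0.73 between large and upper small. Exons of Slc25a11 overlap those of Rnf167 on the other strand over 189 bases in the annotation. Slc25a10, which exchanges dicarboxylates for phosphate, was listed at 48.2, 35.4 and 53.3 FPKM, and its direction between large and upper small intestine changed with scaling, from -0.14 as deposited to 0.26 under one sum and 0.20 under the reference scaling.

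Enzymes that work with these carriers reached a 2-fold difference where the carriers did not. Of 10 enzymes of citrate use and lipogenesis, 4 were called higher and none lower in the large against the lower small intestine, and 6 higher and 2 lower against the upper. Acly, which cleaves exported citrate, was listed at 139.9, 45.3 and 23.9 FPKM in the large, lower small and upper small intestine, opposite in order to Slc25a1. Scd2 and Scd1, desaturases of fatty acids, were listed at 286, 118 and 22.4 FPKM and at 13.3, 1.54 and 0.325 FPKM, again highest in the large intestine. Aco1, the cytosolic aconitase, ran the other way at 30.3, 46.6 and 80.4 FPKM.

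Of 6 enzymes of the malate-aspartate and glycerophosphate shuttles, none was higher and 2 were lower in the large against the lower small intestine, and 5 were lower against the upper. Between upper and lower small intestine, 2 were called higher. The shares of all measured genes were 10.5% and 11.7% lower in the large intestine, and 3.92% higher in the upper than in the lower small intestine. Gpd1, the cytosolic glycerol-3-phosphate dehydrogenase, was listed at 14.3, 126 and 283 FPKM, and Gpd2, its mitochondrial partner, at 14.1, 40.6 and 66.6 FPKM. Mdh2, the mitochondrial malate dehydrogenase, was listed at 279, 553 and 1116 FPKM and Mdh1, the cytosolic form, at 189, 369 and 539 FPKM. These 4 enzymes were lowest in the large and highest in the upper small intestine. The aspartate/glutamate carriers of the same shuttle did not follow them. Slc25a12 was listed at 11.2, 5.85 and 7.44 FPKM and Slc25a13 at 13.6, 8.40 and 12.7 FPKM, both highest in the large intestine as deposited and neither called as deposited. For Slc25a13 the ratio of large to upper small intestine, 1.07 (interval 0.914 to 1.26), was within counting error. Under one sum, Slc25a12 was among the carriers called in favour of the large over the lower small intestine.

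Among the amino acid carriers, 7 of 9 were measured, and 2 were called lower in the large intestine against either small intestinal library. Slc25a15, which exchanges cytosolic ornithine for citrulline from the matrix, was listed at 11.7 FPKM in the large, 88.4 FPKM in the lower small and 108 FPKM in the upper small intestine. Both small intestinal values were far above the large intestinal one, by 7.59-fold (interval 6.79 to 8.53) for the lower small and 9.26-fold (interval 8.27 to 10.4) for the upper small intestine. Upper and lower small intestine differed by 1.22-fold (interval 1.16 to 1.28), beyond counting error and under 2-fold. Slc25a15 ranked 22nd among the 47 carriers in the large intestine, 3rd in the lower small and 4th in the upper small intestine. It lies at chr8:22375551-22398597 on the minus strand.

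Slc25a22, a carrier of glutamate, was listed at 9.84 FPKM in the large, 58.8 FPKM in the lower small and 35.7 FPKM in the upper small intestine. Here the lower small intestine was highest, 5.98-fold (interval 3.42 to 11.3) over the large intestine, and the upper small intestine was 3.63-fold (interval 1.95 to 7.15) over it. The difference between upper and lower small intestine was -0.70 and was not called. Its intervals are wide because the shortest annotated transcript at chr7:141429744-141437892 is only 170 nt long, which makes the implied read number small.

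Enzymes of ornithine and citrulline metabolism were, like Slc25a15, mostly lowest in the large intestine. Of 8 ornithine and citrulline enzymes measured between large and lower small intestine, none was called higher and 6 lower in the large intestine, with a median of -2.06. Against the upper small intestine 6 of 9 were lower, with a median of -2.16. Cps1, which makes carbamoyl phosphate in the matrix, was listed at 7.31, 254 and 319.7 FPKM in the large, lower small and upper small intestine. Otc, which joins it to ornithine to make citrulline, was listed at 12.1, 82.9 and 104 FPKM. Nags, which makes the activator of Cps1, was listed at 4.34, 21.3 and 33.2 FPKM.

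Arg2, the mitochondrial arginase that yields ornithine, was listed at 4.51, 52.9 and 347 FPKM and was the only enzyme of the list called between the small intestinal libraries, higher in the upper. Oat and Aldh18a1, which make ornithine from glutamate by way of a semialdehyde, were the other enzymes called. Their levels were 101, 419 and 453 FPKM for Oat and 13.2, 42.4 and 62.2 FPKM for Aldh18a1, lowest in the large intestine. Ass1, which uses citrulline to make arginine, was listed at 0 in all 3 libraries, which can be a failed estimate and does not show that it is absent. Absorptive enterocyte markers, given above, were also lowest in the large and highest in the upper small intestine, and their part in these differences was not tested.

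**Figure D3:**
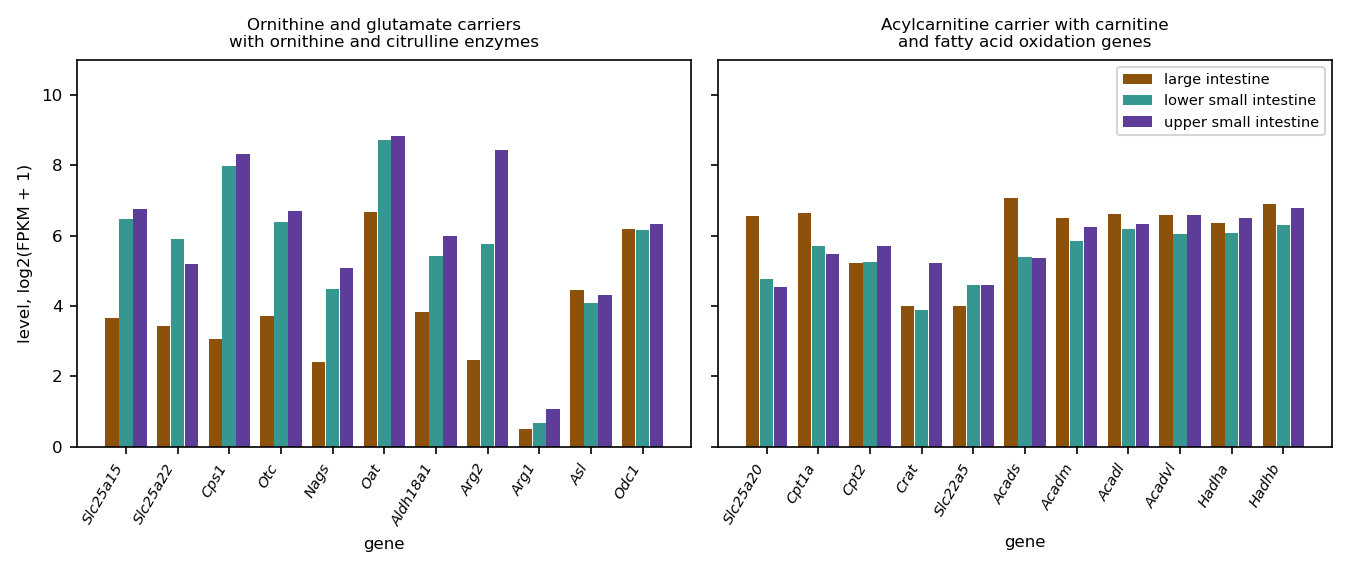
Levels as log2(FPKM + 1), 1 bar per library, of Slc25a15 and Slc25a22 with enzymes of ornithine and citrulline metabolism (left) and of Slc25a20 with carnitine and fatty acid oxidation genes (right). On the left the large intestinal bar is lowest from Slc25a15 to Arg2, and on the right it is tallest by a wide margin for Slc25a20, Cpt1a and Acads.

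The other amino acid carriers were low or even between libraries. Slc25a29, a carrier of basic amino acids, was listed at 2.42 FPKM in the large, 1.48 FPKM in the lower small and 0.429 FPKM in the upper small intestine and was called higher in the large than in the upper small intestine, 5.64-fold (interval 2.44 to 16.7) from 40, 32 and 6 implied reads. Slc25a38, linked to glycine import for heme synthesis, was listed at 9.13, 11.997 and 11.1 FPKM. Slc25a44, a carrier of branched-chain amino acids, was listed at 11.98, 16.1 and 17.3 FPKM. Slc25a18, a second glutamate carrier, and Slc25a2, a second ornithine carrier, stayed under 0.1 FPKM in all libraries.

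Slc25a20, which carries acylcarnitines into the matrix in exchange for carnitine, was listed at 93.6 FPKM in the large, 26.1 FPKM in the lower small and 22.4 FPKM in the upper small intestine. The large intestine stood above both small intestinal libraries, 3.59-fold (interval 3.23 to 3.98) over the lower small and 4.18-fold (interval 3.68 to 4.76) over the upper small intestine, and the small intestinal libraries differed by -0.21. It ranked 4th among the carriers in the large intestine, 12th in the lower small and 16th in the upper small intestine. The gene lies at chr9:108662088-108684641 on the plus strand.

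Most genes of the same oxidation route did not share this difference at 2-fold. Of 15 carnitine and mitochondrial fatty acid oxidation genes, 1 was called higher and none lower in the large against the lower small intestine, and 2 higher and 2 lower against the upper. Of all measured genes, 9.75% were higher and 10.5% lower in the first comparison, and 11.2% and 11.7% in the second. Acads, the dehydrogenase of short-chain acyl groups, was listed at 135, 41.5 and 40.7 FPKM in the large, lower small and upper small intestine, a pattern close to that of Slc25a20. Cpt1a, which makes acylcarnitines at the outer membrane, was listed at 99.03, 50.9 and 43.8 FPKM and was called against the upper small intestine only, with 0.95 against the lower small. Crat, a carnitine acetyltransferase, was listed at 15.2, 13.7 and 36.3 FPKM, and Cpt1b, the muscle form of Cpt1a, at 2.11, 3.41 and 5.84 FPKM, both highest in the upper small intestine.

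The mitoferrins Slc25a37 and Slc25a28 bring iron into mitochondria for heme and iron-sulfur clusters. Slc25a37 (chr14:69241848-69285112, minus strand), best known from erythroid cells, was listed at 14.4 FPKM in the large, 39.5 FPKM in the lower small and 44.2 FPKM in the upper small intestine. It was lowest in the large intestine, with 2.75-fold (interval 1.94 to 4.00) more in the lower small and 3.08-fold (interval 2.14 to 4.53) more in the upper small intestine. Slc25a28, the mitoferrin of most other tissues, was listed at 20.0, 23.6 and 34.9 FPKM and was not called. Its share of the pair was 58.2% (interval 49.3 to 67.0) in the large, 37.4% (32.4 to 42.7) in the lower small and 44.1% (38.4 to 50.2) in the upper small intestine. Thus Slc25a28 was the more abundant of the pair only in the large intestinal library, and the intervals of its share include 50% in the large and upper small but not in the lower small intestine.

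None of 14 heme and iron-sulfur cluster enzymes was called in any of the 3 comparisons. Among all measured genes, 20.2% were called between large and lower small, 22.9% between large and upper small and 6.84% between upper and lower small intestine. Erythroid markers were present at a low level, with 3 of 9 at 1 FPKM or above and sums of 21.5, 38.9 and 26.3 FPKM. Against the lower small intestine 2 of 3 were called lower in the large intestine, with Hbb-b1 at 13.4, 21.3 and 15.4 FPKM. The 3 measured erythroid markers were, like Slc25a37, lowest in the large intestine, and their part in the difference of Slc25a37 was not tested.

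Slc25a39 brings glutathione into mitochondria, and Slc25a40 is its close relative. Slc25a39 was among the most abundant carriers at 96.5 FPKM in the large, 77.2 FPKM in the lower small and 110.3 FPKM in the upper small intestine and was not called, and its direction between large and upper small intestine changed with scaling (-0.19 as deposited, 0.21 under one sum and 0.15 under the reference scaling). Slc25a40 (chr5:8422850-8454797, plus strand) was listed at 10.2, 3.37 and 3.33 FPKM, with the large intestine 3.03-fold (interval 1.65 to 5.62) above the lower small and 3.06-fold (interval 1.55 to 6.67) above the upper small intestine. The share of Slc25a39 in the pair was 90.4% (interval 87.1 to 93.0) in the large, 95.8% (93.3 to 97.5) in the lower small and 97.1% (94.8 to 98.5) in the upper small intestine. Slc25a39 was therefore the predominant form in all 3 libraries.

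Slc25a17, a carrier of the peroxisomal rather than the mitochondrial membrane, was listed at 35.8 FPKM in the large, 19.2 FPKM in the lower small and 15.9 FPKM in the upper small intestine. It was called higher in the large than in the upper small intestine, by 2.25-fold (interval 1.91 to 2.67), and differed by 0.87 from the lower small intestine, short of a call but called at 1.17 under one sum. The other cofactor and nucleotide carriers were not called as deposited. Slc25a51, which imports NAD, was listed at 22.8, 26.6 and 39.4 FPKM, and Slc25a36, which carries pyrimidine nucleotides, at 29.4, 17.2 and 32.5 FPKM. Slc25a33, the other pyrimidine nucleotide carrier, was lower throughout at 4.90, 2.32 and 3.31 FPKM, and its share of the Slc25a33 and Slc25a36 sum was 14.3% (interval 11.5 to 17.3) in the large, 11.9% (9.02 to 15.4) in the lower small and 9.23% (6.79 to 11.99) in the upper small intestine.

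Slc25a26, which imports S-adenosylmethionine, was nearly level at 3.82, 4.13 and 4.18 FPKM. Slc25a26 shares 144 exonic bases with Lrig1 on the other strand. Slc25a32, which carries folate and FAD, was listed at 5.34, 5.68 and 6.23 FPKM. Of 13 mitochondrial folate, nucleotide and NAD enzymes, 3 were higher and 2 lower in the large against the lower small intestine, 2 higher and 3 lower against the upper, and 2 higher and none lower between upper and lower small intestine. The shares of all measured genes called were 20.2%, 22.9% and 6.84% in these comparisons. Mthfd2, a folate enzyme of growing cells, was listed at 2.58, 9.30 and 12.7 FPKM and Nadk2, the mitochondrial NAD kinase, at 9.84, 14.2 and 32.2 FPKM. Amt, of the glycine cleavage system, peaked instead in the large intestine, with 8.39, 1.20 and 2.25 FPKM.

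The widest differences of the family were in 2 less characterised carriers. Slc25a45 (chr19:5877808-5885878, plus strand) was listed at 1.27 FPKM in the large, 12.4 FPKM in the lower small and 95.05 FPKM in the upper small intestine. It stepped up from large to lower small to upper small intestine, with 9.73-fold (interval 3.61 to 37.4) more in the lower small than in the large and 7.66-fold (interval 5.67 to 10.6) more in the upper than in the lower small intestine. Between upper small and large intestine the ratio was 74.5-fold (interval 29.1 to 279), resting on 4, 51 and 262 implied reads in the large, lower small and upper small libraries. Slc25a45 moved from rank 37 of the 47 carriers in the large to 21 in the lower small and 5 in the upper small intestine. It was the only carrier called higher in the upper than in the lower small intestine, where 3.92% of all measured genes were.

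Slc25a48, which has been linked to choline import, had another order. It was listed at 0.845 FPKM in the large, 17.004 FPKM in the lower small and 0 FPKM in the upper small intestine. Only the lower small intestinal library held it at an appreciable level, 20.1-fold (interval 13.3 to 31.5) over the large intestine, from 24, 624 and 0 implied reads. The difference of upper minus lower small intestine was -4.17 on the log2(FPKM + 1) scale, and no ratio is given because the upper value is 0, which can be a failed estimate. As deposited it was the only carrier called lower in the upper than in the lower small intestine, where 2.92% of all measured genes were. Slc25a35 joined it under a pseudocount of 0.1 and under each of the 3 rescalings, Slc25a29 under that pseudocount and Slc25a4 under the reference scaling. The gene lies at chr13:56438355-56474239 on the plus strand.

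Lists of other cells also differed between the small intestinal libraries. Pancreatic acinar markers Cpa1, Cel, Pnlip, Prss2 and Ctrb1 were listed at 0 in the large and lower small intestine and at 4.85, 3.70, 8.63, 6.498 and 15.5 FPKM in the upper small intestine. Between the small intestinal libraries 6 of 6 measured acinar markers were called higher in the upper (list summed 227, 5.71 and 52.1 FPKM). Of that list Amy2a5 was at 0 in all 3, and most of the large intestinal sum was Cela1. Absorptive enterocyte markers were called higher in the upper small intestine for 5 of 10. Myeloid markers summed to 18.8, 36.0 and 21.9 FPKM, highest in the lower small intestine as Slc25a48 was, with 1 of 7 called between the small intestinal libraries. S100a8 was listed at 0 in the large and upper small intestine. The part of these cells in the levels of Slc25a45 and Slc25a48 was not tested.

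Slc25a34 and Slc25a35, related to each other and little characterised, were both highest in the large intestine. Slc25a35 (chr11:68968131-68974365, plus strand) was listed at 27.9 FPKM in the large, 10.7 FPKM in the lower small and 4.88 FPKM in the upper small intestine. The 3 libraries were all apart, with 2.59-fold (interval 2.199 to 3.08) as much in the large as in the lower small intestine and 5.71-fold (interval 4.38 to 7.51) as much as in the upper. The difference between upper and lower small intestine, -0.998, lay just short of the call. It was called at -1.12 with a pseudocount of 0.1, -1.07 under one sum, -1.05 under one sum without the 100 most abundant genes and -1.22 under the reference scaling. Goblet cell markers Muc2 (1128, 329.6 and 151 FPKM), Clca1, Agr2, Spdef and Zg16 had the same order of libraries as Slc25a35. Tff3 (992, 2215 and 1835 FPKM), Fcgbp and Spink4 had another order, being highest in the lower small intestine. Against the lower small intestine, 2 of 8 goblet markers were called higher and 1, Tff3, lower in the large intestine. Against the upper, 4 were called higher in the large intestine, and 3 were lower in the upper than in the lower small intestine. The list summed to 9728, 10108 and 7640.1 FPKM, and the part of goblet cells in the levels of Slc25a35 was not tested. Its annotated exons share 1151 bases with Rangrf on the other strand, which was listed at 32.7, 36.9 and 24.7 FPKM, a pattern unlike that of Slc25a35. Whether counting used strand was not given in the sources used here, and reads of overlapping genes then cannot be told apart. Exons of Slc25a10, Slc25a23, Slc25a33, Slc25a37 and Slc25a46 also overlap annotated opposite-strand genes without a value here. Those of Slc25a25 share 379 bases with Naif1, listed at 1.25, 1.11 and 1.86 FPKM.

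Slc25a34 (chr4:141618824-141623821, minus strand) was listed at 16.97 FPKM in the large, 6.28 FPKM in the lower small and 9.13 FPKM in the upper small intestine. It was called against the lower small intestine, 2.70-fold (interval 2.26 to 3.25), and reached 1.86-fold (interval 1.55 to 2.24) over the upper small intestine, short of a call as deposited but called at 1.21 under one sum and 1.14 under the reference scaling. The share of Slc25a34 in the sum of the pair was 37.8% (interval 34.6 to 41.2) in the large, 36.9% (32.3 to 41.7) in the lower small and 65.2% (58.3 to 71.6) in the upper small intestine. Slc25a35 was thus the more abundant of the pair as listed in the large and lower small intestine and Slc25a34 in the upper small intestine, and these intervals do not include 50%. The intervals do not cover reads from the exons that Slc25a35 shares with Rangrf.

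Uncoupling-protein-like carriers were low. Slc25a30 was listed at 1.46 FPKM in the large, 2.92 FPKM in the lower small and 3.94 FPKM in the upper small intestine, and its call against the upper small intestine lay just inside the threshold at -1.01, from 5, 14 and 13 implied reads. That call was lost under each rescaling, at -0.73 under one sum, -0.93 under one sum without the 100 most abundant genes and -0.76 under the reference scaling. Slc25a14 and Slc25a27 were listed at 3.56, 2.88 and 2.56 FPKM and 1.23, 0.881 and 1.01 FPKM and were not called. The uncoupling protein Ucp2, of the same family but without an Slc25a symbol, was by contrast abundant at 408, 286 and 414 FPKM, and Ucp1 stayed under 0.1 FPKM. Mtch2, an outer membrane relative, was listed at 78.6, 148 and 192 FPKM and was called in favour of the upper small over the large intestine. Slc25a46, a carrier-like protein of the outer membrane, was level at 13.9, 12.5 and 14.1 FPKM.

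Comparisons within a library are not affected by how libraries were scaled, and the splits between related carriers given above are such comparisons. Among 8 pairs plotted, the predominant member changed between regions in 2. These were the mitoferrins, with the limits of counting given above, and Slc25a34 with Slc25a35, with the limit of the Rangrf overlap given above. In the other 6 it was the same gene in all libraries. Slc25a12 held 45.3% (interval 42.0 to 48.6) in the large, 41.1% (37.4 to 44.9) in the lower small and 36.9% (33.3 to 40.8) in the upper small intestine of the aspartate/glutamate pair. Slc25a16 held 61.4% (interval 56.1 to 66.6) in the large, 65.7% (59.6 to 71.3) in the lower small and 58.7% (51.7 to 65.4) in the upper small intestine of its sum with Slc25a42, the carrier of coenzyme A. The 3 intervals of the latter pair overlap.

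**Figure D4:**
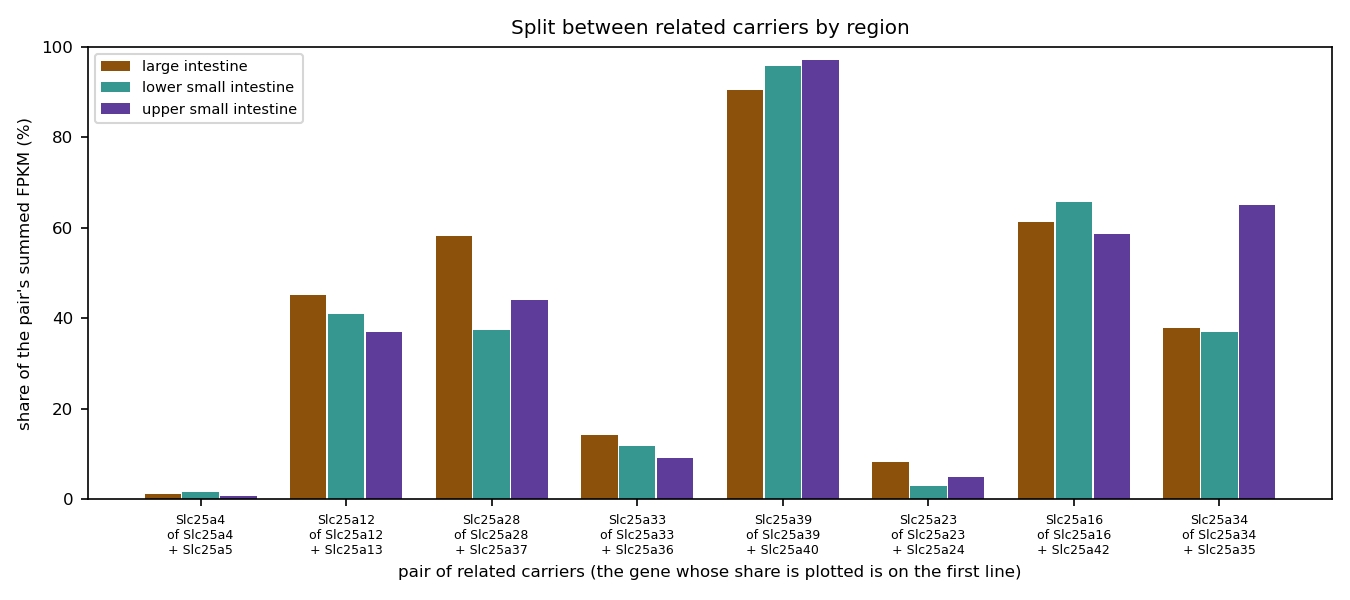
Share of the first-named carrier in the summed FPKM of 8 pairs of related carriers, in percent, with 1 bar per library. The bars cross 50% between libraries for Slc25a28 with Slc25a37 and for Slc25a34 with Slc25a35, and stay on one side of it for the other 6 pairs.

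Several carriers lie next to another carrier in the genome, with 4 such pairs within 50 kb and no protein-coding gene between them. On chromosome X, Slc25a43 ends 18.4 kb before Slc25a5 on the same strand and was listed at 0, 0.406 and 0.485 FPKM, beside 1241, 1281 and 1696 FPKM for Slc25a5. On chromosome 3, Slc25a54 ends 6.46 kb before Slc25a24 and was listed at 0 in all libraries. On chromosome 17, Slc25a41 ends 2.06 kb before Slc25a23 and was also listed at 0 in all. In these 3 pairs one neighbour was expressed and the other was at or under 0.5 FPKM.

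On chromosome 12, Slc25a29 and Slc25a47 lie 0.163 kb apart on opposite strands. Slc25a47, known as a liver carrier, was listed at 1.75, 0.919 and 0.915 FPKM beside 2.42, 1.48 and 0.429 FPKM for Slc25a29, and both were highest in the large intestine. The carriers under 1 FPKM in every library were Slc25a2, Slc25a18, Slc25a21, Slc25a31, Slc25a41, Slc25a43, Slc25a53 and Slc25a54. Of these, Slc25a21, which carries oxodicarboxylates, Slc25a41 and Slc25a54 were listed at 0 in all 3.

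The machinery that brings carriers to the inner membrane differed little. Of 16 measured import genes, none was called between large and lower small intestine or between upper and lower small intestine. Against the upper small intestine 1 was lower in the large intestine, Timm9, a chaperone of carrier precursors, at 13.6, 26.7 and 30.9 FPKM. Of 18 other mitochondrial transport genes, the large intestine was called higher for 3 and lower for 1 against each small intestinal library, and none of 17 was called between these. Of all measured genes, 20.2% were called against the lower small intestine, 22.9% against the upper and 6.84% between the small intestinal libraries. Sfxn3 and Sfxn5, sideroflexins of the inner membrane, were listed at 15.2, 1.43 and 1.65 FPKM and 8.86, 0.268 and 0.146 FPKM. Sfxn1, the serine carrier of that family, ran the other way at 23.8, 62.9 and 95.5 FPKM. Vdac3, a channel of the outer membrane, was listed at 228, 94.9 and 100.006 FPKM.

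Promoter sequences, from 250 bases before to 50 after a RefSeq start (assembly GRCm38.p6), were found for 36 of the 47 carriers, in 46 windows. They are shown for the 4 carriers whose levels separated the regions most plainly in each order: Slc25a15 (small intestine), Slc25a20 (large intestine), Slc25a45 (upper small intestine) and Slc25a48 (lower small intestine). Each is written 5′ to 3′ on the gene's own strand. Capitals mark the GC box letters GGGCGG, read as CCGCCC where they lie on the other strand, and in Slc25a20 also the ETS letters CCGGAAGT. For Slc25a15 one of 2 RefSeq windows is given.
Slc25a15, chr8:22398572-22398871, minus strand: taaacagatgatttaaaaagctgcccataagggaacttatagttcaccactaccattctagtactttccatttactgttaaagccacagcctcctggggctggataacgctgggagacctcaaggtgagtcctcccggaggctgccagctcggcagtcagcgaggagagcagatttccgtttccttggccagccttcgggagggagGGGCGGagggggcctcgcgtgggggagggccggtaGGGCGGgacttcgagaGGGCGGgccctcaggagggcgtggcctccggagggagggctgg
Slc25a20, chr9:108661886-108662185, plus strand: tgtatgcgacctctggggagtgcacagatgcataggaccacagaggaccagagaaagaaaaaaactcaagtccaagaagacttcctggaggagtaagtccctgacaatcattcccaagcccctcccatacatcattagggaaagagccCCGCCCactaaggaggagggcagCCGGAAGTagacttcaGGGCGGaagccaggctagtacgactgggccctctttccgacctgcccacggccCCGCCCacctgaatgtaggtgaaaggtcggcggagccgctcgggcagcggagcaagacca
Slc25a45, chr19:5877572-5877871, plus strand: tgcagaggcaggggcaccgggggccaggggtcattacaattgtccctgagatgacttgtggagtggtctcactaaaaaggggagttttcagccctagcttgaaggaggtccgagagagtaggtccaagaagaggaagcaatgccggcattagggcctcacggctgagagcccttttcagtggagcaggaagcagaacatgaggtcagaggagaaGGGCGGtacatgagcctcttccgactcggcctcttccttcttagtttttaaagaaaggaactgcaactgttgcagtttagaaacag
Slc25a48, chr13:56438105-56438404, plus strand: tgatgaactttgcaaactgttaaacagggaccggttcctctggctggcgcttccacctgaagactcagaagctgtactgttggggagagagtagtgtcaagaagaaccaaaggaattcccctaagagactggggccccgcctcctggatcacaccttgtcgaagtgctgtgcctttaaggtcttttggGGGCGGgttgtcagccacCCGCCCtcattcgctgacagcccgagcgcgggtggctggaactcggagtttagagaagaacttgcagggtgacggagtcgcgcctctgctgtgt

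These promoters of carriers with differing patterns have GC boxes in common, at -36 from the start in Slc25a45, at -62 and -44 in Slc25a48, at -44, -9 and 8 in Slc25a15, and at -102, -63 and -10 in Slc25a20. Positions give the first base of the match on the gene's strand. Searched on both strands, the GC box was in 38 of 46 carrier windows (82.6%). It was in 35.7% of all 32851 windows and in 60.9% of the 12078 windows of genes at 1 FPKM or more. Among measured carriers, it was in 15 of 15 windows of called and 19 of 23 windows of uncalled carriers. These counts are of windows, not carriers. Slc25a15, Slc25a22 and Slc25a23 have more than 1 window each, those of Slc25a23 overlap, and Slc25a35 and Slc25a37, both called, have none.

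Other motifs were sparse. The ETS letters CCGGAAGT were in 1 of 46 carrier windows, that of Slc25a20 at -79, against 3.89% of all windows and 7.84% of those of genes at 1 FPKM or more. The NRF1 motif, that of a factor known for mitochondrial genes, was searched as GCGCA and GCGC with any base between. It was in 2 windows (4.35%), those of Slc25a3 and Slc25a31, against 4.60% of all windows. Among windows of genes at 1 FPKM or more it was in 9.63%, and among those of measured carriers in 1 of 38 (2.63%). The TATA box letters TATAAA were in 2, those of Slc25a18 and Slc25a21, against 13.6% of all windows. Neither carrier was measured, and 7.59% of windows of genes at 1 FPKM or more held these letters. The GATA letters AGATAAG were in that of Slc25a5 alone and the SREBP letters TCACNCCAC in that of Slc25a18 alone, against 3.04% and 1.24% of all windows and 1.91% and 1.16% of those of genes at 1 FPKM or more. The letters searched for HNF4A, CAAAGTCCA, and for ERR, TCAAGGTCA, were in none of the 46 windows and in 0.475% and 0.423% of all windows (0.505% and 0.273% of those of genes at 1 FPKM or more). A match is a run of letters only, and no match says that these letters are not in the window.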

How the data were processed

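RNA from epithelial cells of 3 intestinal regions was sequenced in 1 library each. RNeasy extracts and a TruSeq stranded mRNA kit were used, per the labels' protocols. The deposited values, 1 per gene and library, are taken as FPKM, a unit inferred from the values because the headers name only the library. TopHat2 2.0.13, Bowtie2 2.2.3, SAMtools 0.1.19, Cufflinks 2.2.1 and the build mm10 are named without roles, per the submitters' processing notes. The annotation, any filters and whether strand was used were not given in the sources used here.

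Sums of deposited FPKM were 521651, 646262 and 693218 for large, lower small and upper small intestine, while median ratios to the geometric mean of the 3 were 1.00, 1.01 and 0.999. The libraries were therefore on a common median scale, which would hide a shift of most genes in 1 direction. An exact 0 can be a failed estimate.

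Members and lists were chosen with earlier results of these data known. Differences between 2 libraries were taken in log2(FPKM + 1), the first named minus the other. A gene was measured when either library held it at 1 FPKM, and was called by size at an absolute difference of 1. No p-value or SD was computed. Values are given for the 10 carriers of highest mean FPKM and for every carrier called in at least 1 comparison, and the values of the other carriers were added by role after they were seen. One carrier enters the counts but is not reported here by name. From each pathway list up to 4 measured genes of largest difference are named, and Oat, Aldh18a1 and Ass1 were added after their values were seen. All values come from 3 columns, 1 per library, and no other columns of values were found.

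Depth came from low values. In 359, 371 and 372 genes with a single transcript, 1500 nt or longer, FPKM times length fell near multiples of 0.1195, 0.092 and 0.1375 FPKM kb, and 75.5%, 76.5% and 74.7% were within 0.15 of a whole read. Since the libraries share a scale, the read totals implied are uncertain. Implied reads per gene used the shortest coding transcript of GENCODE M21 (GRCm38, the assembly of mm10), to which all 47 carriers matched, and gave exact intervals on ratios and shares. PCR reads that carry no molecular identifiers are not independent molecules, so these intervals cover counting error only. Alternatives were another pseudocount, other minimum levels, 3 rescalings and a 1.5-fold threshold. Computation used Python 3.11.15, pandas 2.3.3 and SciPy 1.17.1, and the scripts were tested on simulated data.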

Additional observations from a re-analysis of the deposited data

How the results depend on the processing

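For large against lower small intestine, the count of carriers higher in the large intestine, of 39 measured, went from 5 to 10 under one sum and 12 at a 1.5-fold threshold. The share of all measured genes went from 9.75% to 14.2% and 18.1%. At 1.5-fold, 6 carriers were lower there, as were 18.8% of all genes. Higher calls then made up 66.7% of the carriers' calls and 49.2% of the calls among all genes. The median of 0.18 became 0.43 under one sum, 0.26 under scaling by the mitochondrial reference list and 0 with no filter on low values. For large against upper small intestine, the count of carriers lower in the large intestine went from 5 to 9 at 1.5-fold (all genes, 11.7% to 19.8%). For upper against lower small intestine, the count of carriers lower in the upper went from 1 to 3 with a pseudocount of 0.1, 2 under one sum, 2 under one sum without the 100 most abundant genes, 3 under the reference scaling and 5 at 1.5-fold (all genes 2.92%, then 4.49%, 3.19%, 3.14%, 4.38% and 7.48%). The count higher there went from 1 to 3 at 1.5-fold (all genes, 3.92% to 8.53%), and the median of 0.17 became -0.080 under the reference scaling. The one-sum and reference scalings move most genes in the direction of the all-gene shift given above, and a lower threshold calls more genes by construction. No called difference of a named carrier changed sign, and all 23 were kept with a pseudocount of 0.1. Depth limits the carriers with few implied reads, such as Slc25a29, Slc25a30, Slc25a45 and Slc25a48 in the libraries where they were low. No paired analysis was possible because each region has 1 library and no test was run.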
